A study of Mus musculus with 24 samples.

Results

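The cytochrome P450 enzymes are haem proteins of the endoplasmic reticulum that insert an oxygen atom into drugs, steroids, fatty acids and bile acids, with electrons handed over by P450 oxidoreductase. Families 1 to 4 hold most of the enzymes that act on foreign compounds and on fatty acids, and enterocytes carry them as a first barrier for what is swallowed. Many of their genes are switched on by receptors that sense ligands: AHR for family 1, CAR and PXR for Cyp2b, Cyp2c and Cyp3a genes, and PPARα for Cyp4a genes. The members were every protein-coding gene whose symbol starts with Cyp1, Cyp2, Cyp3 or Cyp4 followed by a letter, which gave 81 genes of the 54146 in the count tables (21906 of them protein coding). By family these were 3 genes of family 1, 49 of family 2, 9 of family 3 and 20 of family 4. A mean of at least 10 raw counts over the 12 libraries of an experiment was reached by 40 members in the genotype experiment and by 38 in the inhibitor experiment, 35 of them in both and 43 in either. By family, those 43 were 2, 27, 4 and 10 genes. The other members were lower in both experiments, and of these only Cyp4a29, which passed in 1 comparison, is described. In every library 4 of them had 0 counts.

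RNA of organoids, which are cultured epithelium grown from mouse small intestine, was sequenced in 24 libraries that form 8 groups of 3. The genotype experiment compares WT, CDK8-KO, CDK19-KO and Double-KO organoids, in which Cdk8, Cdk19 or both are inactivated; these genes encode the kinases that can join the Mediator complex of transcription. The inhibitor experiment compares Senexin B, a small molecule that inhibits CDK8 and CDK19, with its solvent DMSO after 16 h and after 24 h, and its labels give no genotype, while the paper describes these organoids as WT. Reads counted on genes in the strand column used came to between 14636861 and 15473180 per library in the genotype experiment and between 27075937 and 28405118 in the inhibitor experiment.

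By genotype, WT is labelled wild type, CDK8-KO is CDK8-/-, CDK19-KO is CDK19-/-, and Double-KO is both. The labels of all 24 libraries, DMSO and Senexin B included, describe 4-hydroxytamoxifen at 600 nM for 7 days before lysis. According to the study's methods, that drug activates CreERT2, driven in the epithelium by the Villin promoter, which removes an exon of floxed Cdk8. Cdk19 was edited with a lentiviral Cas9 guide, and single organoids were then selected and expanded, so those lines are clonal. The 12 genotype libraries are also labelled with the cell type 4T1, the name of a mammary tumour line, although their tissue is given as intestinal organoids.

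The genotype labels were checked against the counts. Cdk8 had normalised counts of 635, 646 and 534 in WT, 685, 857 and 634 in CDK8-KO, 694, 694 and 726 in CDK19-KO and 707, 659 and 645 in Double-KO, so whole-gene counts were not lower in CDK8-KO or Double-KO and do not read the deleted exon. Esr1, part of which is in CreERT2, had normalised counts of 1.01, 4.11 and 6.26 in WT, 286, 301 and 312 in CDK8-KO, 4.03, 2.92 and 2.96 in CDK19-KO and 393, 318 and 298 in Double-KO. It was high in all CDK8-KO and Double-KO libraries and near 0 in WT and CDK19-KO, so the transgene and the Cdk8 deletion cannot be told apart. Cdk19 had normalised counts of 711, 749 and 726 in WT, 702, 646 and 582 in CDK8-KO, 729, 420.1 and 422 in CDK19-KO and 403, 355 and 773 in Double-KO. CDK19-KO replicate 1 and Double-KO replicate 3 were at the WT level, above the other 2 libraries of their groups. Counts of called members that rest on them are given with and without them. Printed fold changes, Cyp2c shares, marker sums and calls shared with the inhibitor include them. Against markers of the labelled tissue, the enterocyte gene Sis had the highest mean of its list, 35702 normalised counts over the genotype libraries, and all 14 enterocyte genes were detected in both experiments. Of 10 hepatocyte genes, 6 had a mean under 10 raw counts in the genotype experiment and 7 in the inhibitor experiment, where Serpina1a and Fgb were at 0, and the most abundant was Cps1, which the intestine also expresses.

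Levels per length, as normalised CPM per kb of exon, order the members within a group. In WT the 5 highest were Cyp2b10 at 208 ± 10.6 (SD, n = 3), Cyp2j6 at 207 ± 8.26, Cyp2c66 at 181 ± 25.2, Cyp4f14 at 160.2 ± 19.3 and Cyp2d26 at 149 ± 14.9. Cyp2b10 metabolises drugs and is a classic CAR target, Cyp2j6 and the Cyp2c enzymes oxidise polyunsaturated fatty acids, and Cyp4f14 hydroxylates leukotriene B4 and other lipids. With DMSO at 16 h the order of levels per kb was Cyp2c65 at 156 ± 7.76, Cyp2c66 at 148 ± 20.4, Cyp2d26 at 142 ± 37.5, Cyp4f14 at 98.4 ± 14.7 and Cyp2j6 at 91.8 ± 17, and of these only Cyp2d26 and Cyp4f14 were neighbours further apart than the SD of either. The Cyp2c genes together made up 32.0 ± 3.03% (SD, n = 3) of the per-kb sum of families 1 to 4 in WT, 20.8 ± 1.12% in CDK8-KO, 39.5 ± 7.67% in CDK19-KO and 20.0 ± 2.50% in Double-KO. That share was lower in every CDK8-KO and Double-KO library than in every WT library.

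Comparing CDK8-KO with WT asks which P450 genes change when Cdk8 is deleted. Of 42 members tested, 13 were lower and 1 was higher at an edgeR adjusted p under 0.05, where 2.36% of all tested genes were lower and 2.79% higher. The 1 higher member was Cyp1b1, which met the expression filter only through groups where it is high. In Double-KO against WT, which shares the WT libraries, 9 members were lower and 6 higher, where 7.9% of all genes were lower and 9.41% higher. Among the 6 were Cyp1a1 and Cyp1b1, which met the expression filter only through groups where they are high. The median log2 fold change of the members was −0.32 in CDK8-KO and 0.07 in Double-KO, against 0.01 and −0.01 over all genes. Most that fell were Cyp2c genes: 10 of 13 tested fell in CDK8-KO, and in Double-KO 8 fell and 1 rose. With Double-KO replicate 3 left out its count went from 15 to 14, and with CDK19-KO replicate 1 left out as well, which was chosen after seeing the data, it was 17. All fold changes compare 3 libraries with 3, and in bulk RNA fewer cells of a type and less RNA per cell cannot be told apart. Leaving out 1 library took the CDK8-KO count of 14 to 4, 5 and 5 without WT replicates 1, 2 and 3, and to 8 without any 1 of the CDK8-KO replicates. The share of all genes is not given for fits that leave out libraries. In CDK8-KO, Cyp2c37, Cyp2c50, Cyp2c66 and Cyp2c70 were called in every alternative fit in which they were tested. Of these, Cyp2c50 met the expression filter only through WT and CDK19-KO, where it is high. It is among the members counted as lower in CDK8-KO and in Double-KO.

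**Figure D1:**
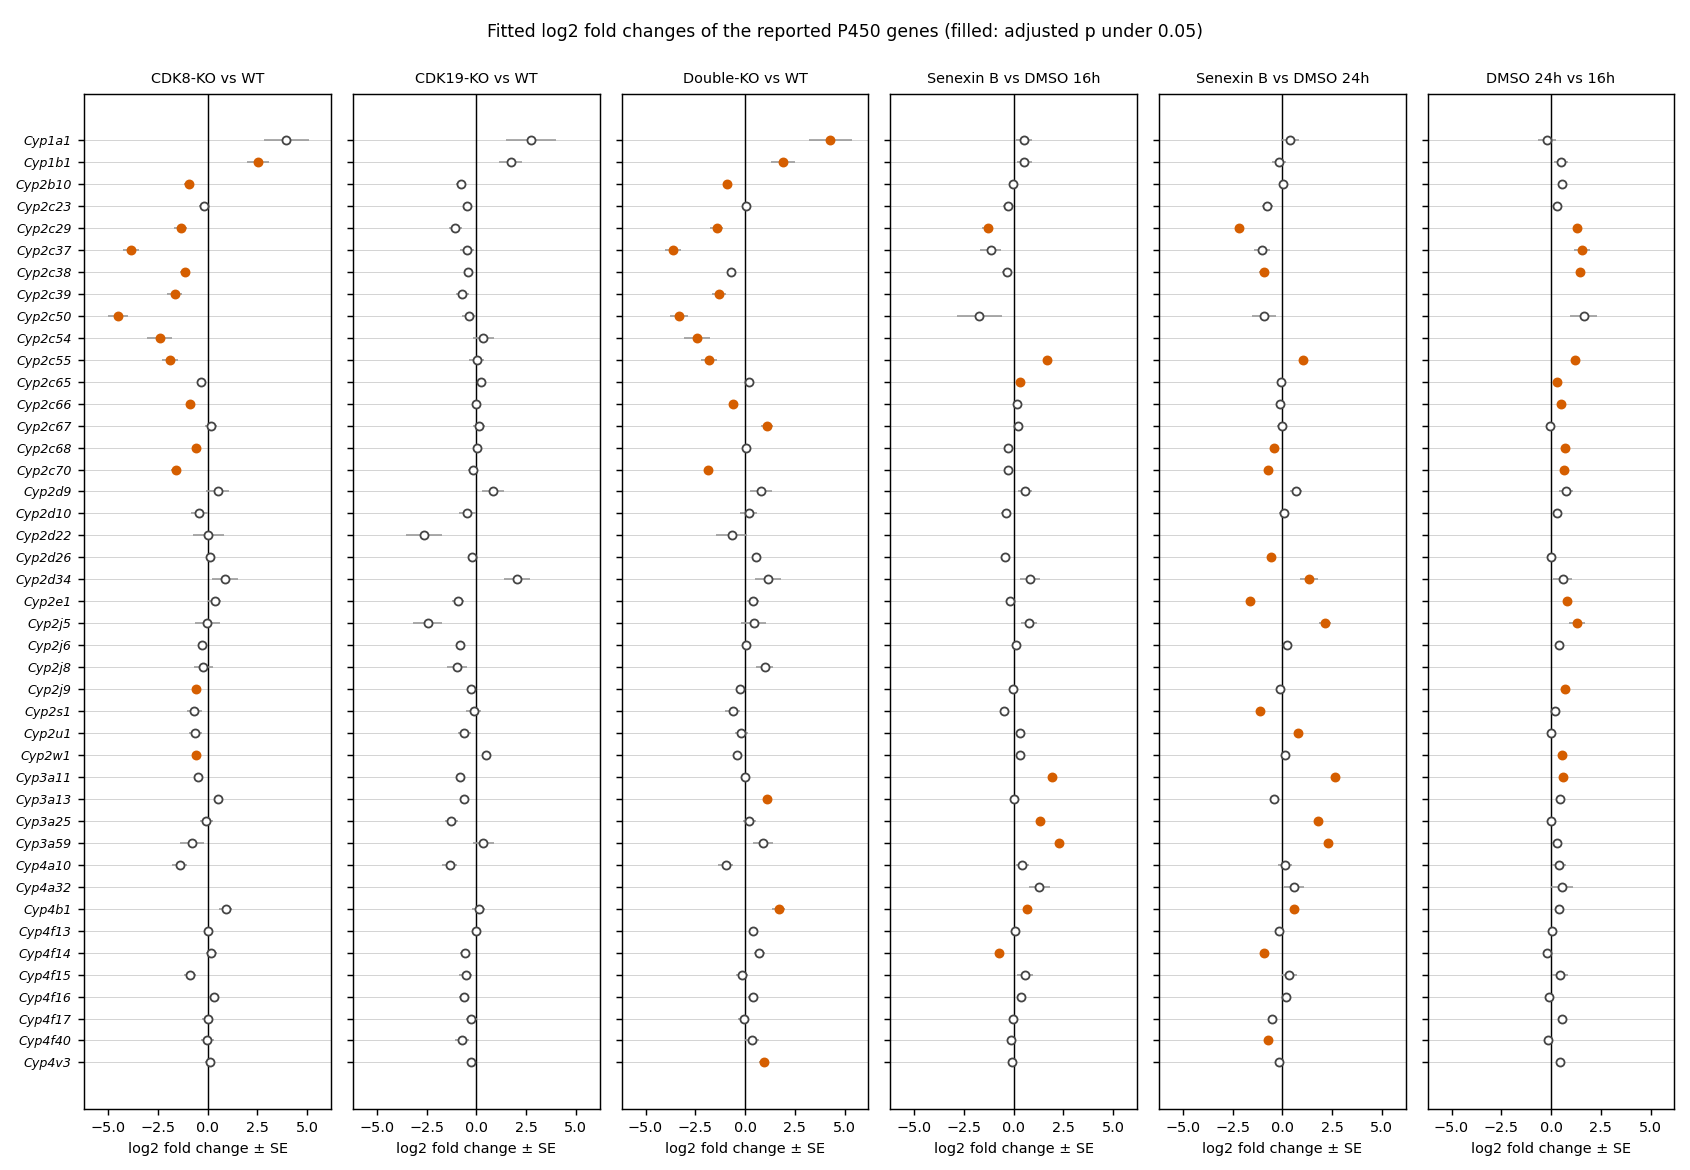
Fitted log2 fold change with its SE (horizontal axis) of the reported members in 3 genotype comparisons, both Senexin B comparisons and DMSO over time; filled points passed an edgeR adjusted p under 0.05. Cyp2c37 and Cyp2c50 lie furthest below 0 in CDK8-KO and Double-KO, and Cyp3a11, Cyp3a25 and Cyp3a59 lie above 0 with Senexin B at both times.

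Cyp2c37 (ENSMUSG00000042248, chr19:39992424-40012243 on GRCm38), whose enzyme oxidises arachidonic acid, had the largest fall among members with a WT mean above 100 normalised counts. It had normalised counts of 296, 376 and 387 in WT, 40.3, 7.14 and 25.9 in CDK8-KO, 178, 249.9 and 339.6 in CDK19-KO and 21.4, 27.6 and 35.9 in Double-KO. In CDK8-KO against WT the log2 fold change was −3.84 ± 0.41 (SE, edgeR adjusted p = 0.000422), and in Double-KO it was −3.63 ± 0.40 (SE, edgeR adjusted p = 0.000308). Every CDK8-KO and Double-KO library was far below every WT and CDK19-KO library. Its neighbour Cyp2c50 (ENSMUSG00000054827, chr19:40089688-40113950) followed the same pattern at lower counts. It had normalised counts of 55.3, 61.6 and 74.1 in WT, 5.04, 1.02 and 1.92 in CDK8-KO, 28.2, 60.3 and 59.2 in CDK19-KO and 3.06, 7.88 and 7.77 in Double-KO. In CDK8-KO the log2 fold change was −4.52 ± 0.50 (SE, edgeR adjusted p = 0.0005), and in Double-KO it was −3.32 ± 0.44 (SE, edgeR adjusted p = 0.000859). The CDK8-KO raw counts summed to 8 against 186 in WT, a ratio of 0.0417 (95% exact interval 0.0178 to 0.0840), and this interval covers counting error only. All CDK8-KO and Double-KO libraries lay below all others. Raw counts were at most 8 in CDK8-KO and Double-KO, so only WT and CDK19-KO, where it is high, let Cyp2c50 meet the expression filter. For this reason its calls support no difference.

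Cyp2c54 (chr19:40037940-40073827), which lies between Cyp2c37 and Cyp2c50, had normalised counts of 30.2, 42.1 and 61.6 in WT, 13.1, 1.02 and 10.6 in CDK8-KO, 26.2, 76.8 and 68.1 in CDK19-KO and 3.06, 13.8 and 7.77 in Double-KO. In CDK8-KO the log2 fold change was −2.41 ± 0.63 (SE, edgeR adjusted p = 0.0485), and in Double-KO it was −2.42 ± 0.63 (SE, edgeR adjusted p = 0.0226). The 6 libraries that lack Cdk8 lay below the 3 of WT. In CDK8-KO without any 1 WT library or any 1 CDK8-KO library its edgeR adjusted p was above 0.05, at most 0.15, as it was with RLE size factors, with the replicate number as a block and with the reads of both strands. In Double-KO without WT replicate 2 or 3 or Double-KO replicate 1 or 3 its edgeR adjusted p was above 0.05, at most 0.0759. Cyp2c70 (chr19:40153353-40187333), which makes the muricholic acids of mouse bile, had normalised counts of 1031, 1035 and 1532 in WT, 434, 447 and 301 in CDK8-KO, 945, 982 and 1235 in CDK19-KO and 419, 341 and 239.9 in Double-KO. In CDK8-KO the log2 fold change was −1.61 ± 0.22 (SE, edgeR adjusted p = 0.00261), and in Double-KO it was −1.85 ± 0.23 (SE, edgeR adjusted p = 0.000578). Each library of those groups was below each WT and CDK19-KO library.

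The enzymes of Cyp2c29 and Cyp2c55 also oxidise arachidonic acid. Cyp2c29 (chr19:39269405-39330713) had normalised counts of 1831, 2173 and 1925 in WT, 1318, 405 and 580.0 in CDK8-KO, 1141, 784 and 919 in CDK19-KO and 772, 832 and 611 in Double-KO. The fitted log2 fold change was −1.36 ± 0.33 (SE, edgeR adjusted p = 0.0347) in CDK8-KO and −1.42 ± 0.33 (SE, edgeR adjusted p = 0.0122) in Double-KO. The CDK19-KO libraries were also below WT, where the edgeR adjusted p of 0.218 did not pass, while edgeR called it lower with only the groups compared and without a filter. In CDK8-KO without any 1 WT library or CDK8-KO replicate 2 or 3 its edgeR adjusted p was above 0.05, at most 0.108, as it was with only the 2 groups in the fit. Cyp2c55 (chr19:39007019-39042693) had normalised counts of 2486, 2851 and 2925 in WT, 1194, 373 and 643 in CDK8-KO, 1808, 2985 and 3517 in CDK19-KO and 403, 1064 and 911 in Double-KO. The log2 fold change was −1.90 ± 0.41 (SE, edgeR adjusted p = 0.0217) in CDK8-KO and −1.80 ± 0.41 (SE, edgeR adjusted p = 0.0114) in Double-KO. All 6 libraries that lack Cdk8 were lower than all 6 that carry it. In CDK8-KO without any 1 WT library or CDK8-KO replicate 3 its edgeR adjusted p was above 0.05, at most 0.0776.

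Cyp2c66, the most abundant Cyp2c gene per kb in WT, had normalised counts of 4658, 5051 and 6079 in WT, 3163, 2679 and 2574 in CDK8-KO, 4163, 5326 and 5996 in CDK19-KO and 3377, 3732 and 3244 in Double-KO. Its log2 fold change was −0.91 ± 0.14 (SE, edgeR adjusted p = 0.00488) in CDK8-KO and −0.61 ± 0.14 (SE, edgeR adjusted p = 0.0131) in Double-KO, with no overlap between either group and WT. In Double-KO without WT replicate 3 its edgeR adjusted p was 0.0623. Cyp2c38 had normalised counts of 360.1, 383 and 421 in WT, 203, 163 and 153 in CDK8-KO, 264, 272 and 347 in CDK19-KO and 271, 148 and 306 in Double-KO. It fell in CDK8-KO, where the log2 fold change was −1.16 ± 0.23 (SE, edgeR adjusted p = 0.0144), and in Double-KO, where every library was also below WT, the edgeR adjusted p of 0.0535 did not pass. DESeq2 called it in Double-KO, as did edgeR without a filter, with at least 10 counts in every library, with the replicate block, with the reads of both strands and without Double-KO replicate 3. All CDK8-KO libraries were below WT, and without WT replicate 1 or 3 or CDK8-KO replicate 3 its edgeR adjusted p was above 0.05, at most 0.054. Cyp2c39, whose enzyme hydroxylates retinoic acid, had normalised counts of 21.1, 30.8 and 36.5 in WT, 11.1, 5.10 and 11.5 in CDK8-KO, 16.1, 15.6 and 22.7 in CDK19-KO and 14.3, 7.88 and 13.6 in Double-KO. For this gene the log2 fold change was −1.66 ± 0.37 (SE, edgeR adjusted p = 0.0266) in CDK8-KO and −1.30 ± 0.36 (SE, edgeR adjusted p = 0.0293) in Double-KO. The WT libraries were the higher ones without overlap, but in CDK8-KO without any 1 WT library or any 1 CDK8-KO library its edgeR adjusted p was above 0.05, at most 0.0944, and in Double-KO without WT replicate 2 or 3 or Double-KO replicate 1 or 2 its edgeR adjusted p was above 0.05, at most 0.102, as it was without both libraries of WT-level Cdk19.

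A single Cyp2c gene rose. Cyp2c67 had normalised counts of 28.2, 22.6 and 38.6 in WT, 29.2, 41.8 and 29.8 in CDK8-KO, 27.2, 25.3 and 44.4 in CDK19-KO and 80.6, 54.2 and 55.4 in Double-KO. In Double-KO the log2 fold change was 1.09 ± 0.30 (SE, edgeR adjusted p = 0.0272), and in CDK8-KO the log2 fold change of 0.17 did not pass (edgeR adjusted p = 0.799). All 3 Double-KO libraries were above every other library, although without WT replicate 1 or 2 or Double-KO replicate 1 its edgeR adjusted p was above 0.05, at most 0.103. Among the smaller falls in CDK8-KO were Cyp2c68, Cyp2j9 and Cyp2w1, at log2 fold changes of −0.60, −0.59 and −0.59, and none of these calls held in all fits. For Cyp2c68 without any 1 WT library or CDK8-KO replicate 1 or 2 its edgeR adjusted p was above 0.05, at most 0.155, as it was with RLE size factors and with the replicate number as a block. Likewise for Cyp2j9, without any 1 WT library or CDK8-KO replicate 1 or 2 its edgeR adjusted p was above 0.05, at most 0.155, as it was with RLE size factors and with only the 2 groups in the fit. As for Cyp2w1, without any 1 WT library or CDK8-KO replicate 1 or 2 its edgeR adjusted p was above 0.05, at most 0.0969, as it was with the reads of both strands.

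**Figure D2:**
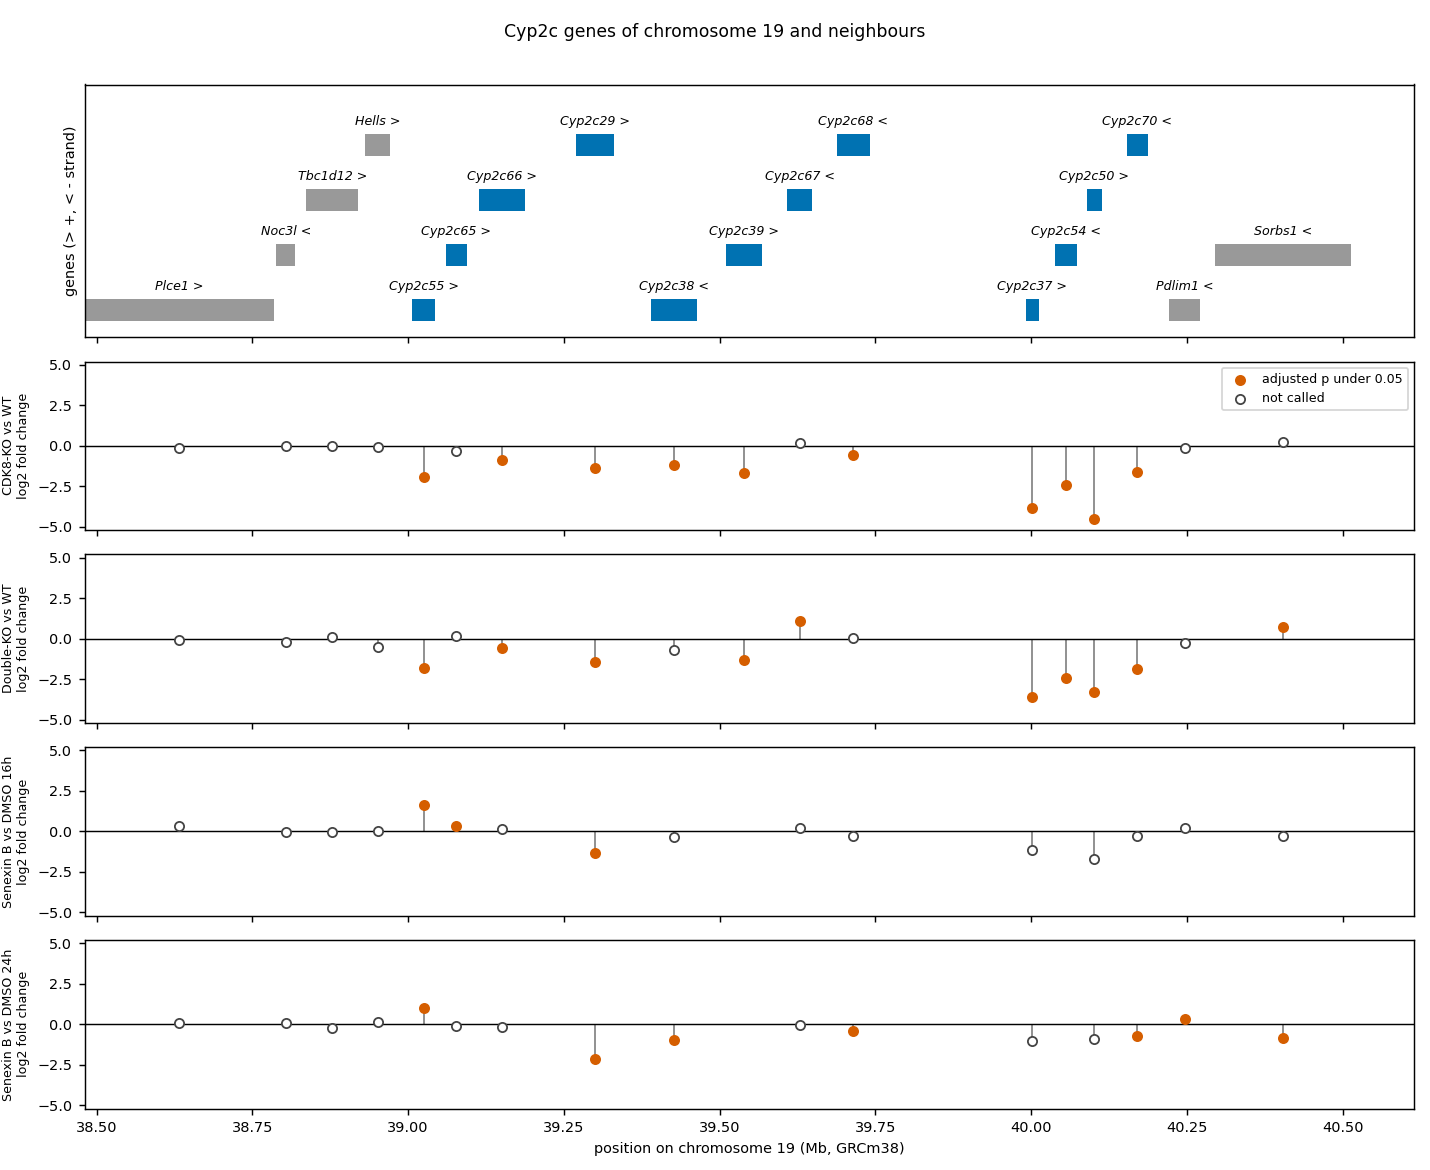
Map of the Cyp2c cluster on chromosome 19 (GRCm38, position in Mb) with the log2 fold change of each tested gene in both knockouts against WT and both Senexin B comparisons; filled points passed an adjusted p under 0.05. In the knockouts the falls are spread over the cluster, from Cyp2c55 at one end to Cyp2c70 at the other, and Cyp2c67 lies above 0 in Double-KO.

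The Cyp2c cluster spans 1180 kb (chr19:39007019-40187333 on GRCm38) with 14 members, and Cyp2c23 lies apart at chr19:44005022-44029208. Of the genes on its flanks, Plce1, Noc3l, Tbc1d12, Hells and Pdlim1 did not pass the test in CDK8-KO or Double-KO. Within the cluster Cyp2c65 had a log2 fold change of −0.33 in CDK8-KO and 0.18 in Double-KO, with edgeR adjusted p of 0.275 and 0.476, while its neighbour Cyp2c66 fell in both. The Cyp3a cluster spans 768 kb (chr5:145345279-146113287) with 8 members and ends 118 kb from Cdk8. Of its tested members 0 passed in CDK8-KO by edgeR, where 1 of the Cyp3a genes tested, Cyp3a11, had an unadjusted p under 0.05 (0.0185), and DESeq2 called none, while edgeR without a filter called Cyp3a11.

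Family 1 enzymes oxidise aromatic hydrocarbons and oestrogens and are the classic targets of AHR. Cyp1a1, under a mean of 10 raw counts in the genotype experiment, had normalised counts of 1.01, 1.03 and 0 in WT, 12.1, 20.4 and 4.80 in CDK8-KO, 7.05, 5.83 and 2.96 in CDK19-KO and 35.7, 5.91 and 5.83 in Double-KO. The filter asks for enough counts in 3 libraries, which were CDK8-KO replicates 1 and 2 and Double-KO replicate 1. Since only groups where it is high let Cyp1a1 be tested, its call in Double-KO supports no difference, and without any 1 WT library or Double-KO replicate 1 its edgeR adjusted p was above 0.05, at most 0.0685. The raw counts summed to 47 in Double-KO against 2 in WT. Cyp1b1 had normalised counts of 2.01, 6.16 and 13.6 in WT, 39.3, 61.2 and 25.9 in CDK8-KO, 12.1, 28.2 and 31.6 in CDK19-KO and 19.4, 22.6 and 39.8 in Double-KO. The fitted log2 fold change was 2.53 ± 0.57 (SE, edgeR adjusted p = 0.0275) in CDK8-KO and 1.91 ± 0.59 (SE, edgeR adjusted p = 0.0433) in Double-KO. Every library of those groups was above every WT library, but in CDK8-KO without WT replicate 1 or 2 or CDK8-KO replicate 1 or 2 its edgeR adjusted p was above 0.05, at most 0.115, and in Double-KO without WT replicate 1 or 2 or Double-KO replicate 2 or 3 its edgeR adjusted p was above 0.05, at most 0.146, as it was with only the 2 groups in the fit, with the reads of both strands and without both libraries of WT-level Cdk19. Raw counts of Cyp1b1 in WT were 2, 6 and 13, so only groups where it is high let it meet the expression filter. For this reason its calls support no difference.

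Outside family 1 and the Cyp2c genes, Cyp2b10 fell and Cyp3a13, Cyp4b1 and Cyp4v3 rose. Cyp2b10 had normalised counts of 6305, 6948 and 6468 in WT, 4569, 2505 and 3107 in CDK8-KO, 4946, 3249 and 3438 in CDK19-KO and 2711, 4635 and 3353 in Double-KO. Its log2 fold change was −0.95 ± 0.24 (SE, edgeR adjusted p = 0.0405) in CDK8-KO and −0.88 ± 0.24 (SE, edgeR adjusted p = 0.0248) in Double-KO. WT was the highest group without overlap, also against CDK19-KO, where edgeR gave an adjusted p of 0.227 and called it only without a filter. In CDK8-KO without any 1 WT library or CDK8-KO replicate 2 or 3 its edgeR adjusted p was above 0.05, at most 0.116, as it was with the replicate number as a block, and in Double-KO without any 1 WT library or Double-KO replicate 1 or 3 its edgeR adjusted p was above 0.05, at most 0.0814. Cyp3a13, a gut enzyme of the drug-metabolising Cyp3a subfamily that lies outside the cluster at chr5:137892932-137921619, had normalised counts of 4319.7, 4773 and 4730.0 in WT, 7462, 4362 and 8212 in CDK8-KO, 3114, 2782 and 3099.6 in CDK19-KO and 8579.7, 10911 and 9842 in Double-KO. In Double-KO the log2 fold change was 1.09 ± 0.19 (SE, edgeR adjusted p = 0.00279). The Double-KO libraries were the highest, CDK8-KO libraries overlapped WT, and CDK19-KO libraries were the lowest. Without CDK8-KO replicate 2 and without a filter edgeR called Cyp3a13 and Cyp4b1 in CDK8-KO too, and in CDK19-KO it called Cyp3a13 without a filter and with only the groups compared. Cyp4b1, which hydroxylates fatty acids, had normalised counts of 752, 835 and 1023 in WT, 1394, 848 and 2683 in CDK8-KO, 686, 970.4 and 1191 in CDK19-KO and 2654, 2792 and 3063 in Double-KO. For this gene the log2 fold change was 1.70 ± 0.33 (SE, edgeR adjusted p = 0.00526) in Double-KO, which lay above WT in every library, while CDK8-KO overlapped WT. Cyp4v3, another fatty acid hydroxylase, rose in Double-KO (log2 fold change 0.94 ± 0.24 SE, edgeR adjusted p = 0.021), where without any 1 WT library or Double-KO replicate 3 its edgeR adjusted p was above 0.05, at most 0.0787, as it was without both libraries of WT-level Cdk19.

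**Figure D3:**
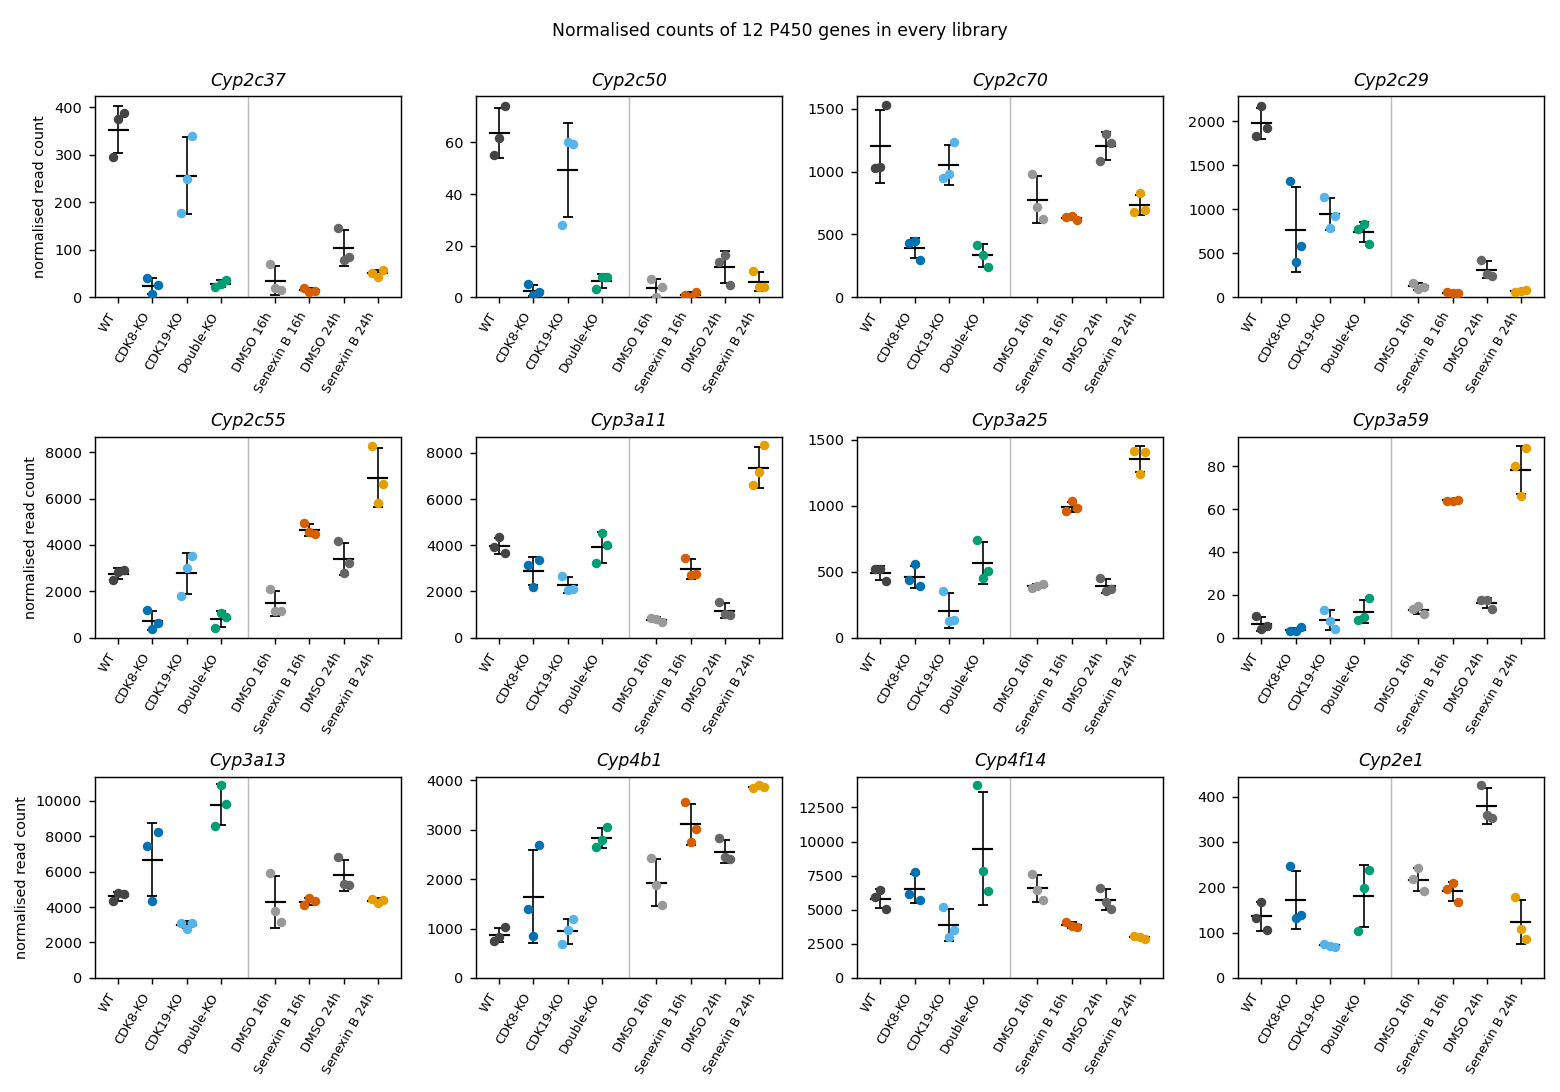
Normalised read counts of 12 members in the 8 groups, with a point for each library and a line and bars for the mean and SD; the 2 experiments were normalised separately. Cyp2c37 is low in all CDK8-KO and Double-KO libraries, and Cyp3a11 is high in all Senexin B libraries.

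Markers of cell types moved with these genotypes. All 8 Paneth cell genes rose in CDK8-KO and 7 of 8 in Double-KO, and their counts summed to 23219, 25910.1 and 19702 in WT, 80831, 62222 and 60299 in CDK8-KO, 25200.4, 25709.9 and 21359 in CDK19-KO and 38959, 79113 and 64535 in Double-KO. The most abundant was Itln1, and no Paneth gene was at 0. Of 14 enterocyte genes, 2 rose in CDK8-KO and 8 in Double-KO, with sums of 161901, 168191 and 158611 in WT, 205349, 204058 and 222447 in CDK8-KO, 142519, 107763 and 120507 in CDK19-KO and 359273, 263082 and 275470.0 in Double-KO. The enterocyte sums were higher in both groups that lack Cdk8, whereas most Cyp2c genes named above were lower. In Double-KO 5 of 8 stem cell genes fell, with sums of 61482, 59685 and 55844 in WT and 45499, 45861 and 44601 in Double-KO. The stem cell sums were 58263, 74002 and 52185 in CDK8-KO, where 1 gene fell. In CDK19-KO they were 68851, 101016 and 88732, all above WT, although 0 of these genes passed. Goblet cell genes rose for 3 of 7 in CDK8-KO and 2 of 7 in Double-KO, and 4 of 6 tested genes of the distal small intestine rose in Double-KO. In Double-KO 2 of 8 proximal genes rose and 1 fell, 2 of 6 tuft cell genes fell, and the enteroendocrine sums of WT and Double-KO overlapped. Genes of cells that such cultures should lack were mostly low: 7 of 8 fibroblast, 3 of 6 endothelial and 5 of 8 immune genes had a mean under 10 raw counts in the genotype experiment, with Col3a1, Lum, Thy1 and Cldn5 among those at 0. What part these changes have in the P450 results was not tested.

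Comparing CDK19-KO with WT, no member of 42 passed edgeR, where 0% of all tested genes passed, while 14 members and 1691 of all 15602 genes had an unadjusted p under 0.05. DESeq2 called 4 members, Cyp2j6, Cyp3a11, Cyp3a25 and Cyp4a10. Cyp2j6 had normalised counts of 10654, 11372 and 11468 in WT, 10249, 7297 and 9532 in CDK8-KO, 7902, 5229 and 6118 in CDK19-KO and 12144, 10316 and 12533 in Double-KO, and the CDK19-KO libraries were below WT (log2 fold change −0.80 ± 0.16 SE, edgeR adjusted p = 0.113). Cyp3a25 had normalised counts of 517, 519 and 426 in WT, 435, 556 and 389.9 in CDK8-KO, 355, 128 and 130.3 in CDK19-KO and 743, 449 and 503 in Double-KO, with CDK19-KO replicate 1 above the other 2 of its group. Without CDK19-KO replicate 1, whose Cdk19 was at the WT level, edgeR called Cyp2j6, Cyp3a11, Cyp3a25, Cyp4a10 and Cyp4f16 lower and Cyp2d34 higher, 6 members in all, and the count was again 6 when Double-KO replicate 3 was left out as well, a fit chosen after seeing the data. A p that misses the threshold does not show that the groups did not differ. The share of all genes called is not given for DESeq2 or for the fits without libraries. Their counts of 4 and 6 therefore cannot tell a change of the members from a change of all genes.

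Double-KO was compared with CDK8-KO to see what the loss of Cdk19 adds. By edgeR 0 members passed, where 0.0256% of all genes did, while 13 members of 42 and 2417 of all 15602 genes had an unadjusted p under 0.05 and DESeq2 called 2, Cyp2c68 and Cyp4v3. Without CDK8-KO replicate 3 the edgeR count was 5, and it stayed at 0 without Double-KO replicate 3 and without both libraries of WT-level Cdk19. A test of departure from additivity asks whether the effect of losing Cdk19 differs with and without Cdk8. It called 0 members by edgeR against 0.0256% of all genes, with 21 members and 2269 of all genes at an unadjusted p under 0.05 and a median of 0.81 against 0.00 over all genes. DESeq2 called 5, Cyp2j6, Cyp3a11, Cyp3a13, Cyp3a25 and Cyp4a10. Its edgeR count was 5 without CDK8-KO replicate 3, 6 without CDK19-KO replicate 1, 1 without Double-KO replicate 2 and 0 without Double-KO replicate 3, and it was 8 with both libraries of WT-level Cdk19 left out, a choice made after seeing the data. For DESeq2 and for fits without libraries the share of all genes is again not given, so these counts do not single out the members.

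Senexin B was compared with DMSO at each time to ask what inhibiting both kinases does over hours. At 16 h 6 members of 40 rose and 2 fell, where 4.36% of all genes rose and 3.39% fell, and the median was 0.13 against −0.01 over all genes. With the replicate number as a block, which pairs these libraries, 14 passed, and without DMSO 16 h replicate 1 the count was 13. At 24 h 8 rose and 10 fell (Cyp4a29 among them, which met the filter mainly through the DMSO 24 h group), where 14.8% and 12.7% of all genes did, with a median of −0.11 against 0.00, and the block gave 23. These shares of all genes belong to the fit of all libraries without the block. For the block and for the fit without DMSO 16 h replicate 1 such shares are not given. Their higher counts therefore cannot tell a gain of the members from a gain of all genes. All 8 calls at 16 h held in every alternative fit. At 24 h Cyp2c68, Cyp2d26, Cyp2d34 and Cyp4a29 lost their call in some fits and the other 14 did not.

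Cyp3a genes, which encode main enzymes for drugs, steroids and bile acids and are classic PXR targets, were among the members that rose. Cyp3a11 (ENSMUSG00000056035, chr5:145854426-145879964) had normalised counts of 863, 816 and 666 with DMSO and 3464, 2705 and 2745 with Senexin B at 16 h, and 1534, 1013 and 972 with DMSO and 6597, 7173 and 8318 with Senexin B at 24 h. At 16 h the log2 fold change was 1.93 ± 0.17 (SE, edgeR adjusted p = 1.8e-05), and at 24 h it was 2.65 ± 0.17 (SE, edgeR adjusted p = 6.66e-07). The Senexin B libraries were above the DMSO libraries at both times without overlap. Cyp3a25 had normalised counts of 377, 390.5 and 407 with DMSO and 961, 1034 and 981 with Senexin B at 16 h, and 455, 355 and 368 with DMSO and 1416, 1243 and 1408 with Senexin B at 24 h. The fitted log2 fold change was 1.34 ± 0.09 (SE, edgeR adjusted p = 3.41e-06) at 16 h and 1.79 ± 0.09 (SE, edgeR adjusted p = 2.72e-07) at 24 h, with every treated library above every control. Cyp3a59 had normalised counts of 13.2, 14.6 and 11 with DMSO and 63.7, 64 and 64.4 with Senexin B at 16 h, and 17.4, 17.5 and 13.3 with DMSO and 80.1, 65.9 and 88.3 with Senexin B at 24 h. Its log2 fold change was 2.30 ± 0.21 (SE, edgeR adjusted p = 2.15e-05) at 16 h and 2.27 ± 0.19 (SE, edgeR adjusted p = 4.67e-06) at 24 h. Again no library overlapped. The other tested gene of the subfamily, Cyp3a13, did not pass at either time, with edgeR adjusted p of 0.979 and 0.0909. In the genotype experiment Cyp3a11 had normalised counts of 3942, 4352 and 3651 in WT, 3127, 2179.7 and 3350.5 in CDK8-KO, 2688, 2052 and 2124 in CDK19-KO and 3214, 4549 and 3988 in Double-KO, and it did not pass in CDK8-KO or Double-KO, with edgeR adjusted p of 0.139 and 0.941. Cyp3a59 had normalised counts of 10.1, 4.11 and 5.22 in WT, 3.02, 3.06 and 4.80 in CDK8-KO, 13.1, 7.78 and 3.95 in CDK19-KO and 8.16, 9.85 and 18.5 in Double-KO, a low level at which each knockout group overlapped WT.

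Among the Cyp2c genes, Cyp2c55 rose and Cyp2c29 fell with Senexin B. Cyp2c55 had normalised counts of 2094, 1167 and 1160.5 with DMSO and 4953, 4549.5 and 4469 with Senexin B at 16 h, and 4167, 2792 and 3217 with DMSO and 8278, 5806 and 6635 with Senexin B at 24 h. For this gene the log2 fold change was 1.66 ± 0.21 (SE, edgeR adjusted p = 0.000257) at 16 h and 1.03 ± 0.20 (SE, edgeR adjusted p = 0.00225) at 24 h. All treated libraries were above all controls of the same time. Cyp2c29 had normalised counts of 165, 90.8 and 118 with DMSO and 60.7, 44.7 and 45 with Senexin B at 16 h, and 422, 268 and 247 with DMSO and 61.6, 69 and 78.2 with Senexin B at 24 h. The fitted log2 fold change was −1.31 ± 0.26 (SE, edgeR adjusted p = 0.00677) at 16 h and −2.16 ± 0.24 (SE, edgeR adjusted p = 4.44e-05) at 24 h, and the treated libraries were the lower ones throughout. Cyp2c37 had normalised counts of 70.1, 20.5 and 14.9 with DMSO and 20.6, 12.2 and 14.3 with Senexin B at 16 h, and 146, 78 and 84.8 with DMSO and 50.3, 43.6 and 57.9 with Senexin B at 24 h. It did not pass, with edgeR adjusted p of 0.207 and 0.0641, although all treated libraries were below the controls at 24 h. At 24 h edgeR called it lower without a filter, with only the groups compared and with the replicate block, and without a filter also at 16 h.

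Cyp2c70 had normalised counts of 983, 716 and 624 with DMSO and 641, 648 and 612 with Senexin B at 16 h, and 1082, 1300.5 and 1223 with DMSO and 677, 829 and 695 with Senexin B at 24 h, and it fell at 24 h (log2 fold change −0.71 ± 0.14 SE, edgeR adjusted p = 0.00184), where the groups did not overlap. Cyp2c38 had normalised counts of 109, 59.5 and 46.8 with DMSO and 68.9, 42.6 and 58.3 with Senexin B at 16 h, and 221, 189 and 186 with DMSO and 105, 109 and 97.5 with Senexin B at 24 h, and it also fell at 24 h (log2 fold change −0.94 ± 0.23 SE, edgeR adjusted p = 0.00766). The abundant Cyp2c65 had normalised counts of 8775, 8286 and 7952 with DMSO and 9718, 10957 and 10618 with Senexin B at 16 h, and 10681, 10144 and 10504 with DMSO and 9920.1, 9538 and 10033 with Senexin B at 24 h. Treated libraries were higher at 16 h (log2 fold change 0.32 ± 0.06 SE, edgeR adjusted p = 0.0061) and lower at 24 h, where the edgeR adjusted p of 0.329 did not pass. Cyp2c66 had normalised counts of 9229, 7443 and 7227 with DMSO and 8877, 8734 and 8888 with Senexin B at 16 h, and 11748, 10673 and 10953 with DMSO and 10878, 9319 and 10087 with Senexin B at 24 h, and it passed at neither time, but was called at 16 h without DMSO 16 h replicate 1. The low Cyp2c50 and Cyp2c54 had 13.6, 16.6 and 4.76 and 19.4, 12.7 and 6.67 normalised counts with DMSO at 24 h, and a mean under 10 raw counts over the inhibitor libraries.

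Other members of family 2 changed at 24 h, and with the replicate block edgeR also called Cyp2s1, Cyp2d26, Cyp2d34 and Cyp2w1 at 16 h. Cyp2e1, the ethanol and acetone oxidase, had normalised counts of 217, 242 and 191 with DMSO and 196, 209 and 168 with Senexin B at 16 h, and 426, 359 and 354 with DMSO and 179, 108 and 86.3 with Senexin B at 24 h. It fell at 24 h (log2 fold change −1.61 ± 0.20 SE, edgeR adjusted p = 9.66e-05), with every treated library below every control, while the 16 h groups overlapped. Cyp2j5, which makes epoxides of arachidonic acid, had normalised counts of 37.6, 20.5 and 9.96 with DMSO and 42.1, 35.5 and 37.8 with Senexin B at 16 h, and 74.6, 54.6 and 41 with DMSO and 157, 280.0 and 324 with Senexin B at 24 h. It rose at 24 h (log2 fold change 2.16 ± 0.31 SE, edgeR adjusted p = 0.000273), and the lowest treated library, at 157, was above the highest control, at 74.6. Cyp2s1 had normalised counts of 13125, 8659 and 9241 with DMSO and 7966, 7162 and 7280.0 with Senexin B at 16 h, and 14012, 10834 and 10736 with DMSO and 7821, 4199 and 4481 with Senexin B at 24 h. It fell at 24 h (log2 fold change −1.11 ± 0.21 SE, edgeR adjusted p = 0.00162), without overlap. Cyp2d34 had normalised counts of 247, 110.3 and 57.8 with DMSO and 401, 169 and 166 with Senexin B at 16 h, and 352, 171 and 97.2 with DMSO and 589, 479.8 and 493 with Senexin B at 24 h. It rose at 24 h (log2 fold change 1.33 ± 0.46 SE, edgeR adjusted p = 0.0436), but its DMSO libraries spread widely, and without DMSO 24 h replicate 2 or 3 or any 1 Senexin B 24 h library its edgeR adjusted p was above 0.05, at most 0.144, and DESeq2 did not call it. Cyp2d26 had normalised counts of 9194, 5983 and 5962 with DMSO and 5832, 4757 and 4898 with Senexin B at 16 h, and 8491, 6641 and 5792 with DMSO and 5052, 4310.5 and 4593 with Senexin B at 24 h. It fell at 24 h (log2 fold change −0.58 ± 0.16 SE, edgeR adjusted p = 0.0166), and without DMSO 24 h replicate 1 or Senexin B 24 h replicate 2 or 3 its edgeR adjusted p was above 0.05, at most 0.0824. Cyp2u1 rose with a log2 fold change of 0.78, and Cyp2c68 fell with a log2 fold change of −0.44, a call for which without DMSO 24 h replicate 1 or 2 or any 1 Senexin B 24 h library its edgeR adjusted p was above 0.05, at most 0.147.

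In family 4, Cyp4f14 had normalised counts of 7640.4, 6413 and 5691 with DMSO and 4128, 3795 and 3740.2 with Senexin B at 16 h, and 6573, 5576 and 5067 with DMSO and 3081, 3003 and 2844 with Senexin B at 24 h. It fell at both times (log2 fold change −0.76 ± 0.11 SE, edgeR adjusted p = 0.000573 at 16 h and −0.95 ± 0.11 SE, edgeR adjusted p = 5.33e-05 at 24 h), with all treated libraries below all controls. Cyp4f40 fell at 24 h, at a log2 fold change of −0.71. Cyp4b1 had normalised counts of 2423, 1882 and 1484 with DMSO and 3570.3, 2747 and 3013 with Senexin B at 16 h, and 2828, 2447 and 2400.3 with DMSO and 3854, 3911 and 3866 with Senexin B at 24 h, and it rose at both times (log2 fold change 0.69 ± 0.14 SE, edgeR adjusted p = 0.00727 at 16 h and 0.60 ± 0.14 SE, edgeR adjusted p = 0.00612 at 24 h). The Senexin B libraries lay above DMSO at each time. Cyp4a29, at a mean under 10 raw counts, had normalised counts of 4.07, 4.88 and 3.98 with DMSO and 5.14, 7.11 and 13.3 with Senexin B at 16 h, and 13.6, 11.7 and 4.76 with DMSO and 2.05, 2.03 and 4.06 with Senexin B at 24 h. At 24 h the raw counts summed to 8 with Senexin B against 31 with DMSO. Of the 3 libraries that let it meet the filter, 2 were of the DMSO 24 h group, where it is high, so its call at 24 h supports no difference, and without DMSO 24 h replicate 1 or 2 or Senexin B 24 h replicate 1 or 2 its edgeR adjusted p was above 0.05, at most 0.0883, and DESeq2 did not call it.

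Whether the Senexin B effect changed between 16 h and 24 h was tested directly. By edgeR 0 members passed, as 0% of all genes did, while 12 members of 40 and 1995 of all 15467 genes had an unadjusted p under 0.05 and DESeq2 called 2, Cyp2c65 and Cyp2e1. The block called Cyp2e1 and Cyp2s1, and without Senexin B 24 h replicate 1 edgeR called Cyp2e1. Time alone, compared in DMSO, came with higher counts of many members: 13 rose and 0 fell by edgeR at 24 h against 16 h, where 4.52% of all genes rose and 6.59% fell, with a median of 0.47 against 0.00. At an unadjusted p under 0.05 there were 22 members and 4339 of all genes, and DESeq2 called 18 members. With the replicate block 19 members rose and 1, Cyp4f14, fell. Of 11 Cyp2c genes tested, 8 rose, among them Cyp2c37 by 1.55, Cyp2c38 by 1.47 and Cyp2c29 by 1.33 in log2. For Cyp2c37, without DMSO 16 h replicate 2 or 3 or DMSO 24 h replicate 1 its edgeR adjusted p was above 0.05, at most 0.121, as it was with only the 2 groups in the fit. The edgeR count was 21 without DMSO 16 h replicate 1, 5 without DMSO 16 h replicate 3 and 6 without DMSO 24 h replicate 1. For the alternative fits of the DMSO comparison the share of all genes is not given. In Cyp2d26, Cyp2s1 and Cyp2d34 DMSO 16 h replicate 1 was the highest of its group.

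Cell type markers also moved with Senexin B. Paneth cell genes fell, 2 of 8 at 16 h and 5 of 8 at 24 h, with sums of 85954, 82336 and 80346 with DMSO and 50437, 42426 and 37147 with Senexin B at 24 h, Defa24 being the most abundant and none at 0. Of 11 enteroendocrine genes 7 rose and 1 fell at 24 h, with sums of 10128, 10401 and 11048 and 10222, 13908 and 13505, and 5 of 6 tested tuft cell genes rose. Enterocyte sums were 166647, 161138 and 150733 with DMSO and 150399, 156376 and 167581 with Senexin B at 24 h, where 5 of 14 genes rose and 3 fell. Goblet cell genes rose for 4 of 7 at 16 h and 5 of 7 at 24 h, where 1 fell, with sums of 103625, 90621 and 89558 with DMSO and 87941, 82937 and 78767 with Senexin B at 24 h. Of 8 stem cell genes 2 rose and 1 fell at 24 h. Sums of distal genes at 24 h were 1914, 1458 and 1452 with DMSO and 1000, 1067 and 1057 with Senexin B, where 1 of 5 tested rose and 1 fell. Proximal sums were 54414, 49785 and 45141 with DMSO and 59567, 57137 and 59959 with Senexin B, where 3 of 8 rose and 2 fell. Immune sums were 534, 555 and 574 with DMSO and 946, 1314 and 1158 with Senexin B, where 1 of 3 tested rose. The part of these changes in the P450 results was not tested.

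The knockouts and the inhibitor share no libraries, so their calls can be counted together. Of 38 members tested in both, 13 passed in Double-KO and 17 with Senexin B at 24 h, and 4 passed in both, which is 30.8% of the first and 23.5% of the second. Over all genes tested in both, 941 passed in both, 36.8% of those called in Double-KO and 23.0% of those called with Senexin B at 24 h. Double-KO and Senexin B at 16 h shared 3 members, 23.1% and 37.5% of the calls of each, against 13.2% and 29.2% over all genes. CDK8-KO and Senexin B at 24 h shared 5, 41.7% and 29.4% of the calls of each, against 39.3% and 7.05% over all genes. In Double-KO and with Senexin B at 24 h, Cyp2c29 and Cyp2c70 were lower in both and Cyp4b1 higher in both. Cyp2c55 went in opposite directions, at −1.80 in Double-KO and 1.03 with Senexin B at 24 h, and the difference between the experiments was not tested.

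Partner genes of the pathway were described by the same test, with lists of 14 redox and haem genes, 16 receptors, and targets of AHR, of PXR and CAR, and of PPARα outside the P450 genes. Among the redox and haem genes, 0 rose and 1 fell of 14 (median −0.08) in CDK8-KO, 1 rose and 2 fell of 14 (median −0.02) in Double-KO, 0 rose and 1 fell of 14 (median −0.10) at 16 h and 2 rose and 3 fell of 14 (median −0.06) at 24 h of Senexin B. Hmox1, which degrades haem, rose in Double-KO (log2 fold change 0.87) and fell with Senexin B at 16 h (−0.83) and 24 h (−1.33). Por, the oxidoreductase itself, fell at 24 h with a log2 fold change of −0.32. Of the receptors, 1 rose and 2 fell of 16 (median −0.14) in CDK8-KO, 3 rose and 1 fell of 16 (median −0.04) in Double-KO, 1 rose and 0 fell of 16 (median 0.00) at 16 h and 0 rose and 3 fell of 16 (median −0.08) at 24 h. Ahr and Nr1i2, which encodes PXR, rose in Double-KO with log2 fold changes of 0.63 and 0.35, and Vdr fell in CDK8-KO (−0.60) and Double-KO (−0.80).

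Of AHR targets outside the family, 0 rose and 1 fell of 7 (median −0.20) tested in CDK8-KO, 1 rose and 0 fell of 7 (median 0.25) in Double-KO, 1 rose and 0 fell of 7 (median 0.10) at 16 h and 3 rose and 0 fell of 7 (median 0.29) at 24 h, with Gsta2 at log2 fold changes of 1.22, 1.37 and 1.58 in the last 3. Among PXR and CAR targets, 1 rose and 2 fell of 12 (median 0.10) in CDK8-KO, 3 rose and 1 fell of 12 (median 0.32) in Double-KO, 4 rose and 0 fell of 12 (median 0.25) at 16 h and 5 rose and 1 fell of 12 (median 0.26) at 24 h. Gstm1 and Gstm3 rose at 16 h by 1.21 and 1.02 and at 24 h by 1.67 and 1.56 in log2, and Ces2a rose with Senexin B (0.78 and 1.03) but fell in CDK8-KO (−0.93) and Double-KO (−0.93). For PPARα targets, edgeR called 0 of 18 in CDK8-KO (median 0.00), where Hadha was among those with an unadjusted p under 0.05 (0.0139). Of the same list, 3 rose and 1 fell of 18 (median 0.14) in Double-KO, 1 rose and 1 fell of 18 (median −0.02) at 16 h and 2 rose and 2 fell of 18 (median −0.15) at 24 h. P450 genes outside families 1 to 4 numbered 19, of which 6 were tested in the genotype and 7 in the inhibitor experiment, and Cyp39a1 fell in Double-KO. With Senexin B 1 of the 7 fell at 16 h and 2 fell at 24 h. A call of Cyp27b1 as lower in Double-KO and of 1 gene as higher at 16 h came from genes that met the filter only through groups where they are high, and supports no difference.

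Promoter sequences from RefSeq on GRCm38.p6 were found for 66 of 81 members and for 36 of the 43 reported. Every promoter of the table, 300 bases around a start, was searched on both strands for GCGTG, the core bound by AHR and ARNT, for TATAAA, for AGGTCA, a site of nuclear receptors, and for DR1, which is AGGTCA, any base and AGGTCA again and so overlaps that motif. GCGTG was in 32.4% of all 32851 promoters and in 20.5% of the 73 of members, TATAAA in 13.6% and 39.7%, AGGTCA in 16.3% and 27.4%, and DR1 in 0.0396% and 0%. In the 42 promoters of reported members the shares were 21.4%, 38.1%, 19.0% and 0%. The sequences printed belong to Cyp3a11 and Cyp3a25, which rose with Senexin B, to Cyp2c37 and Cyp2c50, and to Cyp2c55. Cyp2c55 moved in opposite directions in the knockouts and with Senexin B, and the calls of Cyp2c50 support no difference. Motif matches are in capitals. The promoter of Cyp2c29, which also fell, is not printed and holds TATAAA and AGGTCA. Cyp3a11 is at chr5:145879805-145880104, minus strand, Cyp3a25 at chr5:146009569-146009868, minus strand, Cyp2c37 at chr19:39992174-39992473, plus strand, Cyp2c50 at chr19:40089429-40089728, plus strand and Cyp2c55 at chr19:39006769-39007068, plus strand. Those of Cyp2c37 and Cyp2c50 were identical at 86.6% of 305 aligned positions and hold none of the motifs, which says only that these letters are not in this window.
Cyp3a11: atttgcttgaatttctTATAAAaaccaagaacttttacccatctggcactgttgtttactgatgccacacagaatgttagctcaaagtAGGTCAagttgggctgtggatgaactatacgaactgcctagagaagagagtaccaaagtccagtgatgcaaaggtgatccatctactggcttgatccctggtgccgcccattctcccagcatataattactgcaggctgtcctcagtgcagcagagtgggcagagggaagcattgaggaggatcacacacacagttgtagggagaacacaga
Cyp3a25: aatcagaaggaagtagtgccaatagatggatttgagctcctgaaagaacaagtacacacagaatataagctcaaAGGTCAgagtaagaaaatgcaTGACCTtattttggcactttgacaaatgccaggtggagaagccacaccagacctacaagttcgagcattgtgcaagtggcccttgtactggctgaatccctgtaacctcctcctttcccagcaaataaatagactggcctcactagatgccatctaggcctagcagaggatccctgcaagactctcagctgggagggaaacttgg
Cyp2c37: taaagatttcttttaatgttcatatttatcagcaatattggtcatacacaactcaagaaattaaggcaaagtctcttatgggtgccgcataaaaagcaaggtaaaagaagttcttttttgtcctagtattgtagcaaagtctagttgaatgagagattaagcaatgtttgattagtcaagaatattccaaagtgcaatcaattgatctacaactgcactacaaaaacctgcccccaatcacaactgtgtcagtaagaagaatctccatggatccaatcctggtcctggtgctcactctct
Cyp2c50: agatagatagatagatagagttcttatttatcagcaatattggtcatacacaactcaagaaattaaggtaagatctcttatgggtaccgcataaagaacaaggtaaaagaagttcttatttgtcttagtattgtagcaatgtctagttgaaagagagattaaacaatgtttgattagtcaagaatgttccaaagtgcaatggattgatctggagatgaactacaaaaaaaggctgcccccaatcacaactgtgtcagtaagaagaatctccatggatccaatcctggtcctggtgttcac
Cyp2c55: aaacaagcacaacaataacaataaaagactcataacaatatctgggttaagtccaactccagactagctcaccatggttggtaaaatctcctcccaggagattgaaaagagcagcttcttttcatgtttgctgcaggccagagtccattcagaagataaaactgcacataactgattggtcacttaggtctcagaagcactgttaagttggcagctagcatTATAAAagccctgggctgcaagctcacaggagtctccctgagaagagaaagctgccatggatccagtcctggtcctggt

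Members named in only one experiment so far were also measured in the other. In the inhibitor experiment Cyp2b10 had normalised counts of 5447, 3795 and 3310.1 with DMSO and 4777, 3864 and 3735 with Senexin B at 16 h, and 7074, 5654 and 5572 with DMSO and 7578, 5399 and 5853 with Senexin B at 24 h. Cyp2j6 had normalised counts of 10930.1, 8982 and 7553 with DMSO and 10017, 9738 and 9955 with Senexin B at 16 h, and 12899, 11975 and 11228 with DMSO and 11149.7, 15098 and 15764 with Senexin B at 24 h. Cyp3a13 had normalised counts of 5914, 3786 and 3131 with DMSO and 4098, 4515 and 4324 with Senexin B at 16 h, and 6800.0, 5300.4 and 5259 with DMSO and 4446, 4233 and 4426 with Senexin B at 24 h. In the 12-library edgeR fit and by DESeq2 none of these 3 passed at 16 h or 24 h, and of the 6 tests only Cyp3a13 at 24 h had an unadjusted p under 0.05 (0.0314). At 24 h edgeR called Cyp3a13 without a filter, with only the groups compared and with the replicate block, and it called Cyp2j6 without Senexin B 24 h replicate 1. Cyp1a1 had normalised counts of 5.08, 16.6 and 13.9 with DMSO and 10.3, 21.3 and 19.4 with Senexin B at 16 h, and 6.79, 11.7 and 12.4 with DMSO and 8.21, 14.2 and 18.3 with Senexin B at 24 h. Cyp1b1 had normalised counts of 8.13, 13.7 and 12 with DMSO and 11.3, 15.2 and 22.5 with Senexin B at 16 h, and 11.6, 14.6 and 21.9 with DMSO and 19.5, 13.2 and 10.2 with Senexin B at 24 h. Cyp2c67 had normalised counts of 54.9, 39 and 42.8 with DMSO and 65.8, 44.7 and 50.1 with Senexin B at 16 h, and 51.4, 43.9 and 38.1 with DMSO and 57.5, 37.5 and 35.5 with Senexin B at 24 h. In these 3 genes treated and control libraries overlapped at both times, and the replicate block called none of them. Within every pair of the same replicate number, Cyp1a1 was higher with Senexin B at both times, and Cyp1b1 and Cyp2c67 at 16 h. At 24 h the pairs of Cyp1b1 and Cyp2c67 went both ways. In the genotypes, Cyp2e1 had normalised counts of 132, 168 and 106 in WT, 246, 133 and 138 in CDK8-KO, 75.6, 71 and 69.1 in CDK19-KO and 104, 199 and 239 in Double-KO. Cyp2j5 had normalised counts of 89.5, 86.3 and 121 in WT, 122, 20.4 and 152 in CDK8-KO, 32.2, 6.81 and 15.8 in CDK19-KO and 53, 114 and 233 in Double-KO. For both, all CDK19-KO libraries were below all WT libraries, with edgeR adjusted p of 0.282 and 0.209, and edgeR without a filter called both. Cyp2s1 had normalised counts of 4779, 5042 and 5118 in WT, 2424, 4806 and 2181 in CDK8-KO, 4879, 3552 and 5120.3 in CDK19-KO and 5529.7, 2518 and 1714 in Double-KO. Cyp2d34 had normalised counts of 156, 155 and 82.5 in WT, 221, 252 and 251 in CDK8-KO, 55.4, 709.8 and 841 in CDK19-KO and 329, 359 and 189 in Double-KO. CDK19-KO replicates 2 and 3 of Cyp2d34 were far above the first. In Double-KO edgeR called Cyp2d34 without a filter, with only the groups compared and without both libraries of WT-level Cdk19, and it called Cyp2s1 without Double-KO replicate 1. Cyp2d26 had normalised counts of 3989.8, 4393 and 3595 in WT, 4113, 5145 and 3757 in CDK8-KO, 3814, 2861 and 3776 in CDK19-KO and 8402, 5204 and 4079 in Double-KO. Cyp4f14 had normalised counts of 5899, 6431 and 5047 in WT, 6162, 7732 and 5702 in CDK8-KO, 5219, 2977 and 3531 in CDK19-KO and 14172, 7844 and 6383 in Double-KO. Cyp2c65 had normalised counts of 3659, 3889 and 4715 in WT, 3093, 2901 and 3772 in CDK8-KO, 3643, 5188 and 5598 in CDK19-KO and 4378, 5241 and 4289 in Double-KO. In Cyp2d26 and Cyp4f14 the Double-KO replicate 1 was the highest library of the experiment, and Double-KO overlapped WT in all 3. Without Double-KO replicate 3, edgeR called Cyp2d26 and Cyp4f14 higher in Double-KO, as it did without both libraries of WT-level Cdk19 and without a filter, and DESeq2 called Cyp4f14.

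Of the reported members, 12 passed in none of the comparisons in the 12-library edgeR fit: Cyp2c23, Cyp2d9, Cyp2d10, Cyp2d22, Cyp2j6, Cyp2j8, Cyp4a10, Cyp4a32, Cyp4f13, Cyp4f15, Cyp4f16 and Cyp4f17. Only Cyp2d10 and Cyp2j8 of these were called in no alternative fit either. With the replicate block, Cyp2c23, Cyp2d9 and Cyp4f17 were called at 24 h of Senexin B and Cyp4a32 and Cyp4f16 at 16 h. At 24 h Cyp2c23 was called lower in every alternative other than leaving out a library, and Cyp4f17 also without a filter, with only the groups compared and with the reads of both strands. Members that did not pass had log2 fold changes between −1.41 and 3.95 in CDK8-KO, −0.98 and 1.16 in Double-KO, −1.72 and 1.29 at 16 h and −1.02 and 0.69 at 24 h of Senexin B. For 8 members an exon overlaps an exon of a gene on the other strand, which the unstranded genotype libraries cannot separate. Cyp2c55, Cyp2s1 and Cyp2u1 are among them. Exons of Cyp2c29, Cyp2d9, Cyp2d10 and Cyp4v3 overlap a gene on the same strand. Reads mapping to several places are not in the gene counts. They made up 19.5% to 22.9% of reads in the genotype libraries and 7.25% to 8.17% in the inhibitor libraries. Their effect on the levels of members with similar sequences was not tested.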

How the data were processed

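By the sample records the authors aligned reads with STAR 2.6.0c (the paper names another release) to GRCm 38.p6 and ran FastQC, and deposited read counts per gene without normalisation. The inhibitor libraries are described as rRNA-depleted total RNA, while the protocol text of all libraries describes oligo(dT) selection. Column 4, the reads of 1 strand, was used for both experiments. It holds between 49.6% and 49.7% of stranded reads in the genotype libraries, which are unstranded, and between 87.9% and 90.5% in the inhibitor libraries. Each experiment was normalised and fitted on its own with edgeR 4.0.16 (TMM, filterByExpr, quasi-likelihood test, 12 libraries in 1 model) in R 4.3.3 with limma 3.58.1, over all tested genes, with Benjamini-Hochberg adjustment and an adjusted p under 0.05 as the threshold. DESeq2 1.42.0 served as an alternative. Normalised counts are raw counts divided by the effective library size relative to its mean. Levels per kb use the exon union of GENCODE vM21, in which 54079 of 54146 genes were found. Figures were drawn with matplotlib 3.10.9 and tables with pandas 2.3.3 in Python 3.11.15. No pair of libraries was a duplicate. Replicate numbers pair Senexin B and DMSO libraries, from correlations alone (same number at 16 h 0.181 to 0.443, at 24 h 0.249 to 0.507). Between different numbers the highest correlation was 0.258 at 16 h, above the lowest of the same number, and 0.228 at 24 h. The members and lists were chosen with earlier results of these data known. Full values are given for members called in CDK8-KO, Double-KO or a Senexin B comparison with a log2 fold change beyond 1, and for the 5 with the highest level per kb in WT or DMSO at 16 h.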

Additional observations from a re-analysis of the deposited data

Results flagged for a closer look

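In 4 cases the libraries of 1 contrast lay all on one side and those of its counterpart all on the other, while the direct test of the difference did not pass by edgeR. How many of all tested genes show this pattern was not counted, so the 4 cases give no result about the members. Cyp2j6 had a departure from additivity of 1.17 (log2; edgeR adjusted p = 0.066), Cyp3a13 of 1.17 (edgeR adjusted p = 0.0893) and Cyp4v3 of 1.07 (edgeR adjusted p = 0.191). For Cyp2c65 the Senexin B effect at 24 h differed from that at 16 h by −0.41 (log2; edgeR adjusted p = 0.232). DESeq2 called Cyp2j6 and Cyp3a13 for additivity and Cyp2c65 for the change of the Senexin B effect, and edgeR without a filter or without CDK8-KO replicate 3 called Cyp2j6, Cyp3a13 and Cyp4v3.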

How the results depend on the processing

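No log2 fold change of a called member reversed in any alternative. Of the fits of called members other than leaving out a library, 83 of 93 kept the call in CDK8-KO, 108 of 113 in Double-KO, 56 of 56 with Senexin B at 16 h, 122 of 124 at 24 h and 85 of 91 in DMSO 24 h against 16 h. With DESeq2 the counts were 4 in CDK19-KO, 2 in Double-KO against CDK8-KO, 5 for additivity and 2 for the change of the Senexin B effect, each 0 by edgeR. Without a filter they were 11, 5, 10 and 2, and 14 with Senexin B at 16 h (against 8) and 20 for DMSO (against 13). At least 10 counts in every library gave 9 in CDK8-KO (against 14), where fewer genes were tested. Only the groups compared gave 2 in CDK19-KO and 7 for DMSO. The replicate block gave 14 with Senexin B at 16 h, 2 for the change of its effect and 20 for DMSO, of which 1, Cyp4f14, was lower. With both libraries of WT-level Cdk19 left out, chosen after seeing the data, the counts were 6 in CDK19-KO and 8 for additivity. Leaving out 1 library at a time gave 4 to 8 in CDK8-KO, 0 to 6 in CDK19-KO, 10 to 14 in Double-KO, 0 to 5 in Double-KO against CDK8-KO, 0 to 6 for additivity, 8 to 13 with Senexin B at 16 h, 14 to 18 at 24 h, 0 to 1 for the change of its effect and 5 to 21 for DMSO. The share of all genes called is not given for these alternative fits. Their counts alone therefore do not separate a change of the members from a change of all genes. Where no reason is given, the cause was not tested. Depth limits members of a few counts, such as Cyp1a1 and Cyp4a29.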
